A study of Mus musculus with 6 samples.

Results

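Zinc finger genes named Zfp followed by a number were measured in mouse hearts, and 199 of them reached a mean level of 1 FPKM over the 6 libraries. FPKM is a fragment count divided by transcript length and by library size. The members were chosen by name and by that mean level from a deposited table of 14956 genes, with Zfp36, whose zinc fingers are of another type and bind RNA, left out. The table lists 295 such genes, and 96 of them lay under 1 FPKM. Just inside the limit were Zfp141 at 1.00 FPKM and Zfp316 at 1.00 FPKM, and just outside it were Zfp719 at 0.989 FPKM and Zfp608 at 0.986 FPKM. The rule used the mean level and not the difference between genotypes, so levels are given as a description and the genotype difference is tested.

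Poly(A) RNA was sequenced from the hearts of 3 wild-type mice (Otub1 +/+, WT) and 3 mice that carry 1 disrupted copy of Otub1 (Otub1 +/-, Het), a gene for an enzyme that removes ubiquitin. Every mouse, WT and Het alike, had received doxorubicin, an anthracycline chemotherapy drug that injures the heart, in 6 injections within 2 weeks, so no untreated heart enters these comparisons. Each library is 1 mouse and is named by genotype and number (WT 1 to WT 3, Het 1 to Het 3). Age, sex and strain were not given in the labels, and the heterozygous allele is described only as a knock-out of 1 copy. The design asks how the heart transcriptome of treated Otub1 +/- mice differs from that of treated wild-type mice.

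Most Zfp proteins carry an array of C2H2 zinc fingers, small folds held by a zinc ion between a pair of cysteines and a pair of histidines, each of which reads a few bases of DNA. Many also carry a KRAB box, which recruits the corepressor TRIM28 and the histone methyltransferase SETDB1 to the bound site and so lays down silencing chromatin. The family has grown by repeated local gene duplication, and many of its KRAB members are known to silence retroelements or to protect imprinted regions in early embryos. Other members have no KRAB box and act in RNA processing, in cell division or as activators of transcription.

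Het 1 stood apart from the other 5 libraries. Mitochondrial transcripts took 65.0% of the FPKM of Het 1, against 51.5% to 56.1% for the other libraries. The summed level of 10 cardiomyocyte markers was 7976 FPKM in Het 1 and 15418 to 19538 FPKM elsewhere, with none of the 10 at 0 in any library. The summed level of 7 erythroid genes was 5707 FPKM in Het 1, 2404 in Het 2, 680 in Het 3 and 1006 to 1395 in WT. Summed levels of 12 interferon response genes, none at 0, were 372, 316 and 35.2 FPKM in Het 1, 2 and 3 and 29.4 to 37.1 FPKM in WT. Het 3 held 828 FPKM of 10 lung epithelium markers against at most 0.540 FPKM in any other library, where 6 to 9 of the 10 were at 0. The 10 hepatocyte genes summed to 133 to 189 FPKM in WT and to 2.81, 46.7 and 17.8 FPKM in Het 1, 2 and 3. Fabp1 and Fgb were at 0 in both Het 1 and Het 3, Ttr in Het 1 only, and Apoa1 and Apoa2 in Het 3 only. The part of these differences in the results on Zfp genes was not tested. Otub1 itself was at 15.4, 14.9 and 14.2 FPKM in WT 1, 2 and 3 and at 4.83, 6.48 and 6.65 FPKM in Het 1, 2 and 3, and its Het range lay wholly below its WT range. Summed macrophage markers were 133 to 150 FPKM in WT and 149, 162 and 258 FPKM in Het 1, 2 and 3.

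Zfp genes were transcribed at low levels in these hearts. The median member had a mean of 2.47 FPKM, against 4.33 FPKM over the 11096 genes tested, which are all genes that reach the same limit of 1 FPKM. Of the 199 members, 75 lay between 1 and 2 FPKM, 95 between 2 and 5, 22 between 5 and 10 and 7 above 10 FPKM. No member was at 0 in any library. The level summed over all members was 716, 677 and 683 FPKM in WT 1, 2 and 3 and 608, 677 and 675 FPKM in Het 1, 2 and 3. Because FPKM is a relative measure in a bulk sample, fewer cells of a type and less RNA per cell cannot be told apart.

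**Figure D1:**
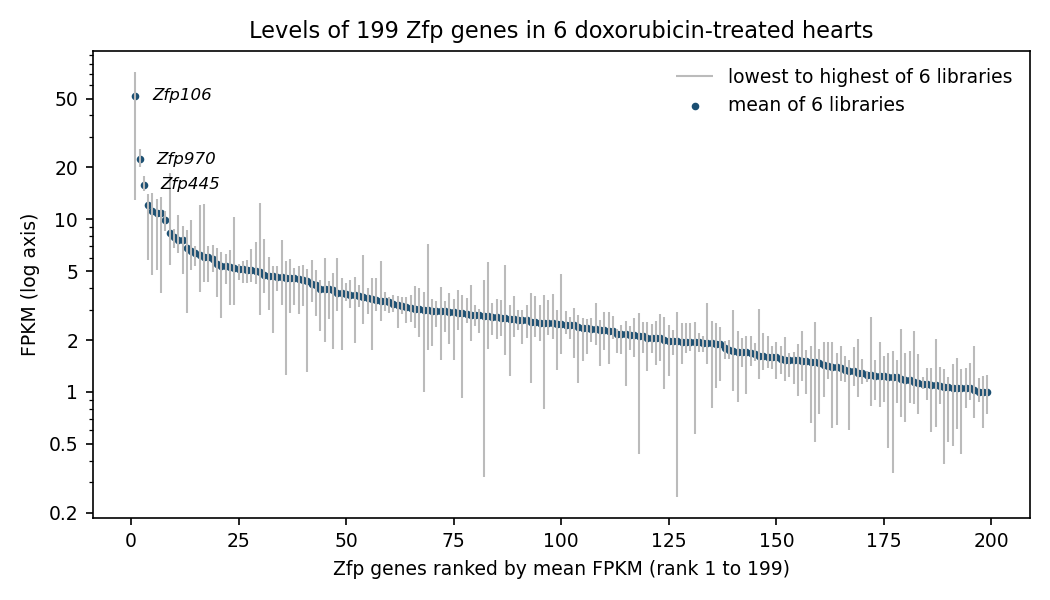
Mean FPKM of the 199 Zfp genes (points, log axis) in rank order, with a line from the lowest to the highest of the 6 libraries. Zfp106 has the highest mean at 52.2 FPKM, Zfp970 follows at 22.3 FPKM and Zfp445 at 15.9 FPKM, and most members lie between 1 and 5 FPKM.

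Zfp106, which encodes an RNA-binding protein needed to maintain motor neurons and muscle, had by far the highest mean of the family at 52.2 FPKM. Its level was 58.5, 43.2 and 56.7 FPKM in WT 1, 2 and 3 and 12.9, 71.4 and 70.5 FPKM in Het 1, 2 and 3. Het 1 was thus below every WT heart while Het 2 and Het 3 were above every WT heart, so the genotypes overlapped (mean 52.8 ± 8.37 against 51.6 ± 33.6 FPKM, SD, n = 3 each). The gene lies on chromosome 2 (120506820 to 120563843, minus strand, GRCm38) and shares 2374 bases with Gm26899, annotated on the opposite strand.

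Zfp970, which encodes 14 fingers by the count used here, had a mean of 22.3 FPKM. Its level was 25.7, 23.2 and 22.4 FPKM in WT and 20.1, 21.9 and 20.5 FPKM in Het, in library order 1, 2, 3. It shares stretches of up to 269 bases with other gene models, among them Gm14288 and Gm14327, so its reads may be divided among copies. Zfp445, a KRAB protein that guards imprinted regions, ranked next. Its level was 16.0, 17.3 and 14.5 FPKM in WT and 17.9, 14.8 and 14.6 FPKM in Het. The genotypes of Zfp445 overlapped, and its fitted difference was -0.02 (SE 0.19) on the log2(FPKM + 1) scale.

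The next members in rank order all had their lowest value in Het 1. Zfp706 stood at 13.7, 12.7 and 14.0 FPKM in WT and 5.78, 12.8 and 13.6 FPKM in Het. Zfp768 stood at 14.2, 13.3 and 13.0 FPKM in WT and 4.76, 10.9 and 11.3 FPKM in Het, with every Het heart below every WT heart. Zfp91, a ubiquitin ligase that acts on the NF-kB pathway, stood at 13.0, 10.8 and 11.8 FPKM in WT and 5.06, 12.3 and 12.7 FPKM in Het. Outside Het 1, Zfp706 and Zfp91 overlapped between the genotypes. Zfp91 overlaps Cntf on the same strand. Zfp651 stood at 12.8, 10.9 and 11.8 FPKM in WT and 3.72, 12.8 and 13.4 FPKM in Het. Zfp207, which encodes a microtubule-binding protein that helps load the checkpoint protein Bub3 onto kinetochores, stood at 11.2, 11.0 and 9.95 FPKM in WT and 8.52, 8.89 and 9.62 FPKM in Het, without overlap between the genotypes.

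Finger counts and KRAB annotations differed among the members, and such features go with the zinc finger name that the rule used. By a search for the C2H2 pattern in the longest coding sequence of each gene, 197 members could be counted and held 0 to 37 fingers, with a median of 10 and quartiles of 7 and 13. The deposited table assigns 84 members (42.2%) to the KEGG map of herpes simplex virus 1 infection, in which KEGG lists KRAB zinc finger genes, and 73 (36.7%) to the Reactome pathway of KRAB-ZNF and KAP interaction. Both annotations were given to 47 members, at least 1 of them to 110 and neither to 89. A retained-intron transcript is annotated for 91 members (45.7%), a smaller share than over all tested genes (6010 of 11096).

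Chromosome 7 held 45 members, 22.6% of those tested against 7.55% of all tested genes. Chromosome 17 held 25 (12.6%, against 5.03%), chromosome 8 held 17 (8.54%, against 5.53%) and chromosome 6 held 13 (6.53%, against 4.82%). Chromosome 2 held 12, a smaller share than that of all tested genes (6.03%, against 8.07%). In 5 clusters of at least 5 members with gaps of at most 200 kb lay 31 members. The fullest, on chromosome 7 from 29768552 to 30169750, held 11 (Zfp84, Zfp30, Zfp790, Zfp27, Zfp383, Zfp74, Zfp568, Zfp14, Zfp566, Zfp260 and Zfp146). A stretch of at least 150 bases at 97% identity or more with another gene was found in 64 members, 20 overlapped another gene on the same strand and 48 on the opposite strand. Values of these members can hold reads of their copies or neighbours, and the labels and notes do not say if the quantification used the strand of the reads.

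A promoter of 300 bases (250 before to 50 after the start site, RefSeq, GRCm38.p6) was matched by symbol for 159 members. Among all words of 8 bases found in at least 10% of these promoters, counted on both strands, the word GTCACTCA (reverse complement TGAGTGAC) had the highest share relative to all promoters. It occurred in 21 of 159 members (13.2%) and in 452 of 27025 promoters of all genes (1.67%). The 27025 promoters belong to genes of any level in the heart, while the members had all reached 1 FPKM. The next word, TGTCACTC, overlaps it by all but 1 base, and 17 members held both. In 10 members (6.29%) the word was followed, after a gap of 11 bases, by the CCAAT box that the factor NF-Y is known to bind. That arrangement stood in 68 of 27025 promoters (0.252%), and 19 of those 68 belong to genes with a Zfp name of any level. The word and the spacing were chosen after the sequences had been seen, from members that are copies of one another, and 7 of the 10 share a stretch with another gene. A match of letters is a description and not a binding site. The 10 sequences are shown to let the arrangement be seen in members from 5 chromosomes, and they are given on the strand of the gene with the word and the box in capitals.
Zfp938 (chr10:82241337-82241384, minus strand): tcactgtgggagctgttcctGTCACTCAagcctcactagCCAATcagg
Zfp97 (chr17:17121249-17121296, plus strand): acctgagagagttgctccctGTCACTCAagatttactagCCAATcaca
Zfp959 (chr17:55891973-55892020, plus strand): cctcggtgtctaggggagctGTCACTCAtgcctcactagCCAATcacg
Zfp966 (chr2:175931156-175931203, minus strand): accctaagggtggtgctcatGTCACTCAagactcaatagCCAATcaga
Zfp970 (chr2:177464634-177464681, plus strand): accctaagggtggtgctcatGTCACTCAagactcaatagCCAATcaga
Zfp971 (chr2:178023167-178023214, plus strand): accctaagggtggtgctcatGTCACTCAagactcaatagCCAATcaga
Zfp931 (chr2:178078525-178078572, minus strand): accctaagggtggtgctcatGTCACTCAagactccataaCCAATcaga
Zfp932 (chr5:109996416-109996463, plus strand): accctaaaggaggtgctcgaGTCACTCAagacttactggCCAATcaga
Zfp958 (chr8:4613066-4613113, plus strand): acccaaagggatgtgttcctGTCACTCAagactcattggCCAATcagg
Zfp866 (chr8:69774965-69775012, minus strand): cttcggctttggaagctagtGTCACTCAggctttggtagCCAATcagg
The word lay 74 to 127 bases before the start site in these genes, and the windows of Zfp966, Zfp970 and Zfp971 were identical over their whole length. Levels of the 10 genes ranged widely, from a mean of 1.18 FPKM for Zfp966 to 22.3 FPKM for Zfp970. The median fitted difference between Het and WT was -0.19 on the log2(FPKM + 1) scale for the 10 and -0.05 for the 149 members whose promoter lacks the arrangement. Without Het 1 these medians were -0.05 and -0.05, so the contrast was not seen without that library. In Het 1 the median differences from the WT mean were -0.47 and -0.10 on that scale, and Zfp932 and Zfp959 alone among the 10 lay above it, by 0.86 and 0.71. In Het 2 the medians were -0.13 and -0.06, with 4 of the 10 above the WT mean, and in Het 3 they were 0.06 and -0.06, with 5 of the 10 above.

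No Zfp gene differed between Het and WT hearts at an adjusted p under 0.05 (limma, Benjamini-Hochberg over 11096 genes, n = 3 mice each). Over all genes 0.018% were called, which is 2 genes, and the smallest adjusted p of a member was 0.753. Otub1 itself, with a Het mean at 40.4% of its WT mean, did not pass either. Its fitted log2 difference was -1.19 (SE 0.19), with a limma adjusted p of 0.376. The fit can thus miss a difference of that size, and the lack of called members does not show that they are unchanged. At an unadjusted p under 0.05, 5 members were lower in Het (2.51%, against 3.08% of all genes) and 0 were higher (against 0.802%), which makes 2.51% in either direction against 3.88% of all genes. For members, the authors' deposited table gave 0 genes with an adjusted p under 0.05, where 1.02% of its 14956 genes had one, and 6 with an unadjusted p under 0.05 (3.02%, against 7.08%). The table marks 1 member as significant, Zfp568 (0.503%, against 3.02% of its genes), a mark that all its genes with an unadjusted p under 0.05 and a log2 fold change of at least 1 in size carry. With 3 mice against 3, the smallest p that the exact permutation test can give for 1 gene is 0.1, so that test cannot pass 0.05 here.

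In 23 members every Het heart lay below every WT heart (11.6%, against 15.6% of all genes), and in 6 every Het heart lay above (3.02%, against 1.83%). This split depended on scaling. With median-ratio scaling of the libraries 11 members were lower (5.53%, against 6.83% of all genes) and 19 higher (9.55%, against 5.87%). With quantile normalization 10 were lower (5.03%, against 7.17%) and 19 higher (9.55%, against 5.5%). With scaling to the sum without mitochondrial genes 14 were lower (7.04%, against 10.9%) and 7 higher (3.52%, against 2.63%). Leaving out Het 1, which leaves 2 Het hearts against 3, gave 15 members lower (7.54%, against 9.41% of all genes) and 3 higher (1.51%, against 2.97%) at an unadjusted p under 0.05, and 0 at an adjusted p under 0.05.

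Zfp568, a KRAB zinc finger protein that represses a placental transcript of Igf2 in mouse embryos, had the largest difference among the members without overlap. Its level was 4.18, 3.72 and 4.45 FPKM in WT 1, 2 and 3 and 0.321, 2.89 and 1.07 FPKM in Het 1, 2 and 3. All 3 Het hearts were below all 3 WT hearts, but they ranged from 0.321 to 2.89 FPKM. The fitted log2 difference was -1.22 (SE 0.37), with a limma adjusted p of 0.753, an unadjusted limma p of 0.015 and an exact permutation p of 0.1. Without Het 1 the fitted log2 difference was -0.85 (SE 0.27), with an adjusted limma p of 0.335. The authors' deposited table gives a log2 fold change of -1.53 with an adjusted p of 0.478 and marks the gene as significant by its unadjusted p and fold change. Zfp568 (ENSMUSG00000074221) lies on chromosome 7 (29983955 to 30028282, plus strand, GRCm38), with 11 fingers by the count used here and no overlapping gene.

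Of the other 4 members at an unadjusted p under 0.05, Zfp830, a protein associated with the spliceosome, stood at 6.10, 6.80 and 6.82 FPKM in WT and 3.54, 4.50 and 5.47 FPKM in Het. Zfp422 stood at 6.42, 5.78 and 6.65 FPKM in WT and 3.20, 5.07 and 4.66 FPKM in Het. Zfp931 stood at 2.22, 2.26 and 2.38 FPKM in WT and 1.16, 1.79 and 1.59 FPKM in Het. In all 3 genes Het 1 was the lowest library, and Het 2 and Het 3 were also below every WT heart. Zfp213 stood at 2.40, 2.55 and 2.32 FPKM in WT and 1.32, 1.91 and 1.91 FPKM in Het. Fitted log2 differences of these 4 genes lay between -0.34 (Zfp213) and -0.47 (Zfp830), each with a limma adjusted p of 0.753. Without Het 1 they were -0.34 for Zfp830, -0.31 for Zfp422, -0.29 for Zfp931 and -0.23 for Zfp213, with adjusted limma p from 0.310 to 0.374. Zfp422 shares 708 bases at most with other genes (Zfp422-ps and Zfp955b), Zfp931 shares stretches with Zfp970 and Zfp971 among others, and Zfp213 lies opposite Gm26695.

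Zfp146, whose protein consists almost entirely of zinc fingers, stood at 6.76, 7.01 and 6.92 FPKM in WT and 4.32, 5.81 and 5.57 FPKM in Het. Zfp397 stood at 4.60, 4.86 and 4.45 FPKM in WT and 1.77, 3.92 and 3.71 FPKM in Het. Zfp35 stood at 3.60, 2.96 and 2.53 FPKM in WT and 2.08, 2.51 and 2.17 FPKM in Het. The gap between the genotypes was narrow for Zfp35, where WT 3 exceeded Het 2 by little, and wider for Zfp146.

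The 6 members with every Het heart above every WT heart had small differences, from 0.15 (Zfp141) to 0.25 (Zfp362) on the log2(FPKM + 1) scale, each with a limma adjusted p of 0.753. Without Het 1 they were 0.08 (Zfp472) to 0.33 (Zfp362). Zfp362 stood at 3.50, 3.07 and 3.21 FPKM in WT and 3.56, 4.21 and 4.47 FPKM in Het. It was the only one of the 6 in which Het 1 was the lowest Het heart. Zfp202, whose human counterpart represses genes of lipid metabolism, stood at 0.956, 1.02 and 0.813 FPKM in WT and 1.37, 1.11 and 1.05 FPKM in Het. Zfp326, part in human cells of a complex that couples transcription to splicing, stood at 1.55, 1.69 and 1.40 FPKM in WT and 2.05, 1.71 and 1.79 FPKM in Het. Zfp472 stood at 0.928, 0.893 and 0.954 FPKM in WT and 1.47, 1.10 and 0.965 FPKM in Het. Zfp984 stood at 2.07, 2.15 and 2.03 FPKM in WT and 2.74, 2.29 and 2.29 FPKM in Het. In Zfp202, Zfp326, Zfp472, Zfp984 and Zfp141 the highest library was Het 1. Zfp984 overlaps Gm20707 on the same strand and Zfp141 shares 388 bases with 2610021A01Rik.

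**Figure D2:**
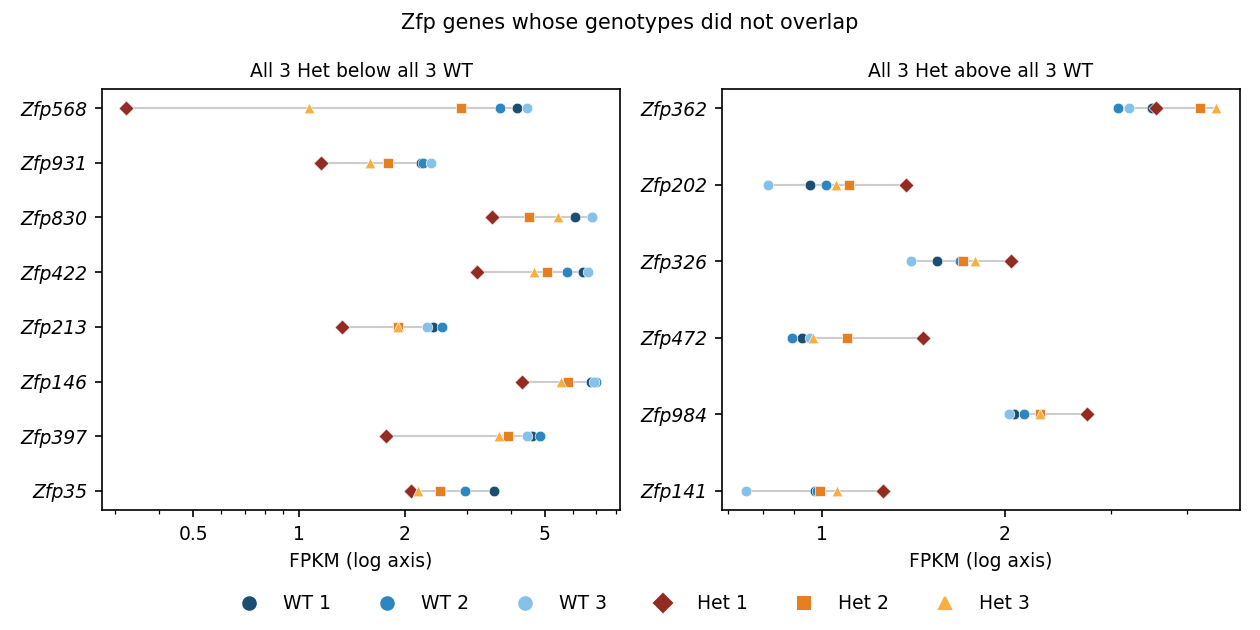
FPKM (log axis) in each of the 6 libraries for 8 Zfp genes with all 3 Het hearts below all 3 WT hearts (left) and the 6 with all 3 above (right). Each marker is 1 mouse. Zfp568 spans the widest range, from 0.321 FPKM in Het 1 to 4.45 FPKM in WT 3, and the genes on the right differ by less.

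Spread between the Het hearts exceeded that between the WT hearts in 171 of the 199 members, a count not made over all tested genes. The median SD of log2(FPKM + 1) was 0.0983 in WT and 0.274 in Het, against 0.112 and 0.364 over all tested genes. The wider spread in Het was thus not particular to Zfp genes. Het 1 was the highest library in 67 members (33.7%, against 18.1% of all genes) and the lowest in 104 (52.3%, against 65.0%). Differences from the WT mean had an SD over members of 0.61 in Het 1, 0.15 in Het 2 and 0.20 in Het 3, on the log2(FPKM + 1) scale. Over all tested genes these SDs were larger, at 0.77, 0.33 and 0.35. The Zfp genes of Het 1 lay between -1.95 and 1.49 from the WT mean. Above it by more than 0.5 were 27 members (13.6%, against 9.72% of all genes), and below it by more than 0.5 were 57 (28.6%, against 47.1%). In Het 2 no member passed 0.5 in either direction (against 2.48% of all genes above and 3.11% below), and in Het 3 0 were above (1.83%) and 2 below (4.48%).

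The median Zfp gene differed from all tested genes in Het 1 but little in the other Het hearts. In Het 1 the median difference from the WT mean was -0.19 for members and -0.45 for all tested genes. In Het 2 the medians were -0.05 and -0.03, and in Het 3 they were -0.06 and -0.04. The fitted median over all libraries was -0.07 for members and -0.18 for all genes, so members lay 0.11 higher relative to the median gene on the log2(FPKM + 1) scale. Without Het 1 that relative median was -0.01, so its sign rests on 1 library.

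**Figure D3:**
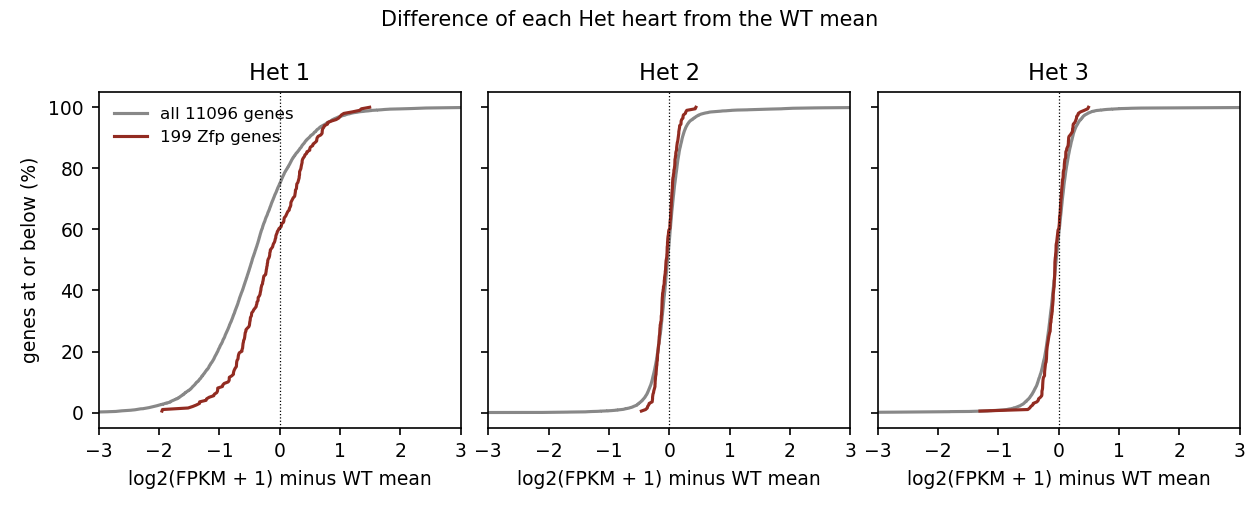
Cumulative share of genes (percent) by the difference of log2(FPKM + 1) in Het 1, Het 2 and Het 3 from the WT mean, for the 199 Zfp genes (red) and all 11096 tested genes (grey). The curves are wide and apart in Het 1, with medians of -0.19 and -0.45, and steep and close together in Het 2 and Het 3.

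In Het 1 some Zfp genes had several times the WT level and others a small part of it. Zfp948, with 15 fingers, stood at 3.50, 5.08 and 3.00 FPKM in WT and 12.4, 2.80 and 3.06 FPKM in Het. Zfp715 stood at 6.17, 8.74 and 5.46 FPKM in WT and 18.6, 5.69 and 5.64 FPKM in Het. In both genes Het 1 was the highest library, while Het 2 and Het 3 lay at or near the lower end of the WT range. Zfp950 was at 7.16 FPKM in Het 1 and 1.76 to 2.88 FPKM in the other 5 libraries, and Zfp612 at 12.2 FPKM and 4.34 to 5.58 FPKM. Zfp979 (5.65 FPKM) and Zfp14 (5.46 FPKM) in Het 1 were 2.59 and 2.48 times the WT mean.

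At the low end of Het 1, beside Zfp568 and Zfp106, was Zfp809, a KRAB protein that silences murine leukaemia virus proviruses in embryonic cells. It stood at 5.54, 5.13 and 5.75 FPKM in WT and 1.26, 4.76 and 5.19 FPKM in Het. Zfp652 stood at 5.15, 4.70 and 5.16 FPKM in WT and 1.31, 5.13 and 5.05 FPKM in Het. Zfp526 stood at 2.28, 1.71 and 2.45 FPKM in WT and 0.248, 2.20 and 2.92 FPKM in Het. In these 3 genes and Zfp651, Het 1 was at 11.5% to 31.4% of the WT mean, and Het 3 lay within or above the WT range. Zfp568 was at 7.80% of the WT mean in Het 1, but was also below the WT range in Het 2 and Het 3. Zfp568 and Zfp14 are neighbours in the same cluster on chromosome 7, yet lay -1.95 and 1.02 from the WT mean in Het 1.

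**Figure D4:**
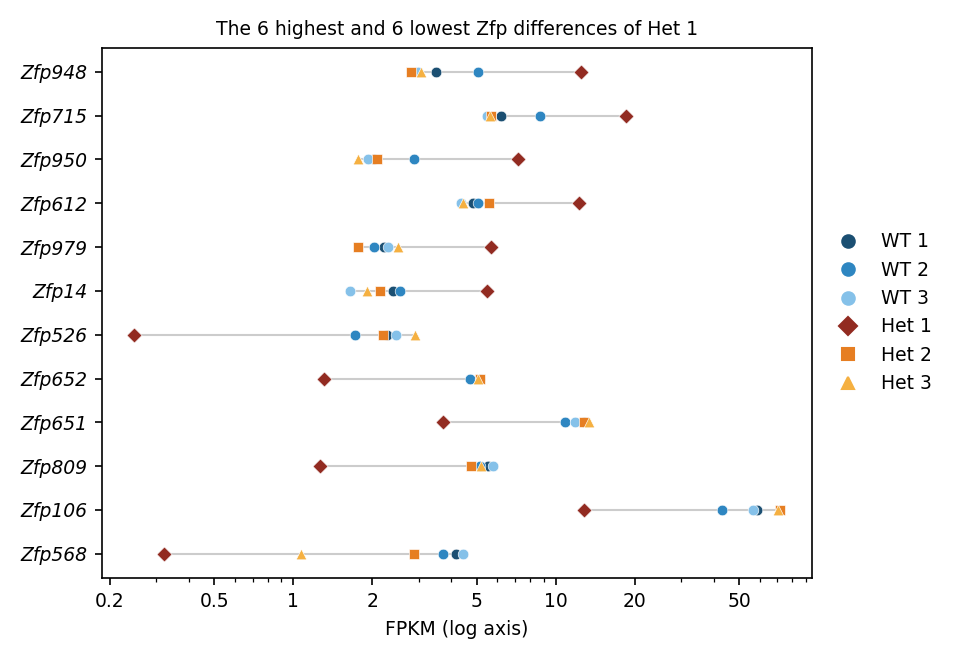
FPKM (log axis) in each of the 6 libraries for the 6 Zfp genes highest and the 6 lowest in Het 1 relative to the WT mean. Het 1 (dark red diamond) stands apart from the other 5 libraries at one end of each line, from 12.4 FPKM in Zfp948 to 0.321 FPKM in Zfp568, where Het 3 is low as well.

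Within WT, the members with the largest spread were Zfp866 and Zfp959. Zfp866 stood at 4.06, 1.54 and 3.34 FPKM in WT and 1.54, 3.60 and 3.50 FPKM in Het, so that WT 2 and Het 1 were alike and low. Zfp959 stood at 1.70, 0.511 and 1.44 FPKM in WT and 2.53, 1.21 and 1.61 FPKM in Het, with WT 2 lowest. Zfp866 overlaps Gm20422 on the same strand and Atp13a1 on the other.

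The difference in Het 1 varied with the level of the members. Members of 1 to 2 FPKM had a median of -0.09 in Het 1, against -0.26 for all genes of that level, and members of 2 to 5 FPKM had -0.27 against -0.38. The 22 members of 5 to 10 FPKM had -0.02 in Het 1 against -0.59 for all genes of that level. In Het 2 and Het 3 the same 22 had -0.21 and -0.17 against -0.03 and -0.05. The 7 members above 10 FPKM had -1.09 in Het 1 against -0.80. Members in the KEGG map had a median of -0.06 in Het 1 and the other 115 had -0.22, while in Het 2 and Het 3 the medians of both groups lay between -0.07 and -0.04.

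Members with an annotated retained-intron transcript had a median of -0.06 in Het 1, and the other 108 had -0.30. Over all tested genes the same split gave -0.40 and -0.53. By finger number, the 31 members with 0 to 4 fingers had a median of -0.30 in Het 1 and the 32 with 15 or more had 0.03. The 62 with 5 to 9 fingers had -0.15 and the 72 with 10 to 14 had -0.22, so the medians did not follow finger number in order. Members on chromosome 7 had a median of -0.23 in Het 1 and those on chromosome 17 had 0.17, against -0.31 and -0.36 for all tested genes of these chromosomes. The 12 members on chromosome 2 had -0.47 and the 11 on chromosome 9 had 0.16, against -0.49 and -0.48. Members of 1 chromosome differed as well, since the cluster of 5 on chromosome 17 had a median of -0.61. Without Het 1 the median fitted differences were -0.04 with and -0.04 without a retained intron, -0.03 for 0 to 4 fingers and -0.07 for 15 or more, and -0.10 on chromosome 7 and -0.01 on chromosome 17. These splits in Het 1 are descriptions of 1 library.

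Of 8 listed Zfp genes known to act on imprinted regions or retroelements, 4 reached 1 FPKM (Zfp568, Zfp809, Zfp932 and Zfp445). Of the 4, 0 passed at an adjusted p under 0.05 and 1, Zfp568, had no overlap between the genotypes, where 15.6% of all genes were lower without overlap. Zfp932, which binds endogenous retroviruses in mouse embryonic stem cells, stood at 2.34, 2.27 and 2.05 FPKM in WT and 4.82, 1.67 and 1.65 FPKM in Het. Het 1 was the highest library and Het 2 and Het 3 were the lowest. Zfp932 shares 1765 bases with Gm15446.

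Of 19 listed members that act in transcription or chromatin architecture, 18 reached 1 FPKM, 0 passed the adjusted test and 1 had no overlap, lower in Het (5.56%, against 15.6% of all genes). That gene was Zfp410, a transcription factor known for activating the chromatin remodeller gene Chd4, at 1.94, 1.84 and 2.01 FPKM in WT and 1.59, 1.61 and 1.55 FPKM in Het. All 3 Het hearts of Zfp410 lay close together, including Het 1, with a fitted log2 difference of -0.18 (SE 0.11) and a limma adjusted p of 0.753. Zfp148 stood at 2.81, 2.34 and 2.74 FPKM in WT and 1.13, 2.78 and 2.39 FPKM in Het. Of 15 listed members with roles in RNA, ribosomes or the cytoplasm, 13 reached 1 FPKM, and 3 had no overlap, Zfp830 and Zfp207 lower (15.4%, against 15.6% of all genes) and Zfp326 higher in Het (7.69%, against 1.83%). The lower share was thus at the background, and the higher one is 1 gene.

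Of 10 listed members known from tissue differentiation, 8 reached 1 FPKM and 0 passed at an adjusted p under 0.05. Without overlap 1, Zfp568, was lower in Het (12.5%, against 15.6% of all genes) and 0 were higher. In Het 1 alone 6 of the 8 lay below the WT mean by more than 0.5, as did 47.1% of all genes and 28.6% of members. The median fitted difference of the 8 was -0.15, and 0.05 without Het 1. Zfp568 also stands in the list of genes that act on imprinted regions or retroelements. Zfp467, which acts in the choice between bone and fat cells, stood at 1.25, 1.84 and 0.954 FPKM in WT and 1.904, 1.41 and 1.79 FPKM in Het. Zfp521, another regulator of that choice, stood at 1.74, 1.69 and 2.27 FPKM in WT and 0.874, 2.08 and 1.60 FPKM in Het. Both genes overlapped between the genotypes. Zfp260, a partner of GATA4 in heart muscle cells, stood at 5.14, 5.44 and 5.34 FPKM in WT and 4.44, 5.49 and 5.02 FPKM in Het, with a fitted log2 difference of -0.08 (SE 0.15).

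Partners of the KRAB members gave no called gene either. Of 28 listed genes of the corepressor machinery 24 were tested, 0 passed at an adjusted or an unadjusted p under 0.05, and 4 were lower (16.7%, against 15.6% of all genes) and 1 higher (4.17%, against 1.83%) without overlap, shares that rest on few genes and lie near the background. The median log2 difference was -0.08 against -0.18 for all genes, and -0.06 against -0.04 without Het 1. Trim28, the corepressor bound by KRAB boxes, stood at 12.2, 11.8 and 10.5 FPKM in WT and 10.2, 12.3 and 9.94 FPKM in Het, with overlapping genotypes. Setdb1 stood at 3.61, 4.21 and 3.14 FPKM in WT and 5.00, 3.42 and 3.04 FPKM in Het. The SUMO gene Sumo2, without overlap, averaged 15.2 ± 4.57 FPKM in the WT hearts and 10.2 ± 2.41 FPKM in the Het hearts (SD, n = 3 each). The histone deacetylase gene Hdac2, also without overlap, averaged 9.82 ± 0.597 FPKM in the WT hearts and 7.51 ± 2.02 FPKM in the Het hearts. The DNA methyltransferase gene Dnmt3a, the 1 higher without overlap, averaged 2.35 ± 0.0228 FPKM in the WT hearts and 2.79 ± 0.250 FPKM in the Het hearts.

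Zinc finger genes of other names (Zkscan, Zscan and Zbtb), with SCAN or BTB domains, were tested in 43 of 56 listed cases. None passed at an adjusted or unadjusted p under 0.05 in limma. Without overlap 4 were lower (9.3%, against 15.6% of all genes) and 1 higher (2.33%, against 1.83%), which was Zkscan6 (1.97 ± 0.0596 FPKM in WT and 2.75 ± 0.713 FPKM in Het). Their median log2 difference was -0.10, and -0.01 without Het 1. Of the 43, 9 had a fitted difference above 0. Zbtb16 averaged 25.5 ± 12.9 FPKM in WT and 12.4 ± 8.91 FPKM in Het, with overlap. Of 26 listed imprinted genes 13 were tested, 0 passed, 4 were lower (30.8%, against 15.6% of all genes) and 0 higher (against 1.83%) without overlap, and the median was -0.22, or -0.12 without Het 1. Igf2, whose placental transcript Zfp568 is known to repress, stood at 4.28, 3.38 and 3.24 FPKM in WT and 2.93, 2.89 and 2.94 FPKM in Het (mean 3.64 ± 0.562 against 2.92 ± 0.0265 FPKM, SD, n = 3 each). The genotypes did not overlap in either Igf2 or Zfp568, each lower in Het, and neither passed at an adjusted p under 0.05. Impact, another imprinted gene, averaged 5.66 ± 0.364 FPKM in the WT hearts and 4.34 ± 0.666 FPKM in the Het hearts, without overlap. Of the 13 imprinted genes, 3 had a fitted difference above 0. Among these was Cdkn1c, which averaged 7.71 ± 2.05 FPKM in WT and 12.4 ± 5.05 FPKM in Het, with overlap. The share of 30.8% rests on 4 genes.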

How the data were processed

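Poly(A) RNA of 6 mouse hearts was analysed from 1 deposited table. The authors deposited FPKM per gene and library, a fragment count divided by transcript length and library size. No header names this unit, which was read from the range of the deposited values and from StringTie among the tools. Per the submitters' processing notes HISAT2 2.0.4, StringTie 1.3.4d, cutadapt 1.9, DESeq2 and edgeR were used with mm10, with no role stated. The authors also deposited a fold change (ratio), its log2, a p-value, its −log10 and a q-value, per the file headers. The table has no counts, so depth is unknown, no counting interval is given, and error is the spread between mice.

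The 11096 genes whose mean reached 1 FPKM were tested on log2(FPKM + 1), a scale that understates changes of low genes, with limma 3.58.1 in R 4.3.3 (eBayes with trend and robust variance, Benjamini-Hochberg adjustment, threshold 0.05, 2 genotypes, no covariate). Coordinates are those of GENCODE M21 (GRCm38), in which all 199 members were found by identifier. Shared stretches were found with blastn 2.17.0. Fingers were counted in translated coding sequences as C, 2 to 4 residues, C, 12 residues, H, 3 to 5 residues, H. A search for KRAB boxes in RefSeq proteins was planned and not run, and the annotations in the deposited table were used instead. The fit was checked on simulated normal values with equal spread in both genotypes. That check does not cover the wider spread of the Het hearts. Each library is 1 mouse.

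Members and lists were chosen with earlier results of these data known. The rule for named genes took up to 8 members per direction with the smallest p among those without overlap, the 8 highest, the 2 nearest to each side of the limit, the 2 with the largest SD within each genotype, and up to 3 or 4 per list. The 6 highest and 6 lowest in Het 1, Zfp260, Setdb1 and Trim28, and the 10 genes with the promoter arrangement were named after their values were seen. Alternatives were other pseudocounts, filters, scalings, variance models and library weights, the replicate number as a block, and leaving out each library. Some genes of the lists are not reported here.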

Additional observations from a re-analysis of the deposited data

How the results depend on the processing

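No Zfp gene passed at an adjusted p under 0.05 in any of the 15 alternatives to the reported fit (limma), and 22 genes of any name passed with library weights, 1 with the replicate block, 1 with median-ratio scaling and 1 with quantile normalization, against 2 as reported. Without each library in turn 1 to 38 did, with 8 without Het 1, 25 without Het 2 and 38 without Het 3. Members lower at an unadjusted p under 0.05 numbered 17 with library weights (8.54%, against 10% of all genes in that fit), 1 with a mean of at least 5 FPKM (3.45%, against 2.86%), 1 with the replicate block (0.503%, against 1.71%), 2 with median-ratio scaling (1.01%, against 1.91%), 3 with quantile normalization (1.51%, against 2.07%) and 2 without mitochondrial genes in the scaling (1.01%, against 2.1%), against 5 as reported. Over the libraries left out they numbered 1 to 15, with 15 without Het 1 (7.54%, against 9.41%), 3 without Het 3 (1.51%, against 3.6%) and 1 without each WT library (0.503%, against 1.21% to 1.59%). Members higher numbered 3 with library weights (1.51%, against 2.81%), 2 with median-ratio scaling (1.01%, against 1.63%) and 2 with quantile normalization (1.01%, against 1.69%). Over the libraries left out they numbered 0 to 3 (0% to 1.51%, against 0.171% to 2.97% of all genes). Members without overlap numbered 7 (7 lower, 0 higher) at 5 FPKM or more, where only 29 members are left to count (24.1% lower, against 20.1%). With median-ratio scaling 11 were lower and 19 higher (5.53% and 9.55%, against 6.83% and 5.87%). With quantile normalization 10 were lower and 19 higher (5.03% and 9.55%, against 7.17% and 5.5%). Without mitochondrial genes in the scaling 14 were lower (7.04%, against 10.9%). Leaving out 1 library gave 32 to 63, a count that grows by construction with fewer samples (31.7% without Het 1, against 32.7% of all genes). Of them 25 to 44 were lower (12.6% to 22.1%, against 18.9% to 25.7% of all genes). Those higher numbered 7 to 19 (3.52% to 9.55%, against 2.62% to 10.9%). The median of members relative to all genes, 0.11 as reported, was -0.0013 with library weights, which put a weight of 0.0486 on Het 1, and ranged from -0.0076 without Het 1 to 0.144 without Het 3.

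Of 545 values of 38 named members under the alternatives, 35 changed sign, and the lowest adjusted p among the 545 was 0.168. Signs changed for Zfp970 (0.051), Zfp445 (0.21) and Zfp866 (0.13) with median-ratio scaling, for the same genes with quantile normalization (0.056, 0.19 and 0.11), and for Zfp445 (0.012) without mitochondrial genes. With library weights they changed for Zfp106 (0.36), Zfp91 (0.034), Zfp651 (0.094), Zfp866 (0.16), Zfp526 (0.13), Zfp948 (-0.22), Zfp932 (-0.26), Zfp715 (-0.14), Zfp950 (-0.10), Zfp979 (-0.025) and Zfp14 (-0.054). Over the libraries left out the values ranged from -0.32 to 0.25 for Zfp866, -0.11 to 0.037 for Zfp445, -0.76 to 0.43 for Zfp106, -0.51 to 0.073 for Zfp91, -0.67 to 0.14 for Zfp651, -0.68 to 0.022 for Zfp652, -0.65 to 0.18 for Zfp526, -0.28 to 0.63 for Zfp948, -0.27 to 0.29 for Zfp932, -0.20 to 0.58 for Zfp715, -0.16 to 0.62 for Zfp950, -0.029 to 0.60 for Zfp979 and -0.074 to 0.50 for Zfp14. Without Het 1 the sign changed in all of these but Zfp445, which changed without WT 2, Het 2 or Het 3, and Zfp866 also changed without WT 1 or WT 3. The cause was not tested. The labels give no pairing of the mice by replicate number. Deviations of same-numbered libraries correlated at -0.197, -0.435 and 0.211 (WT against Het, across genes, numbers 1, 2 and 3). Those of differently numbered libraries correlated at -0.389 to 0.507, so these values cannot show if mice were paired. With an unknown number of reads, the depth behind low FPKM values cannot be given, and members near 1 FPKM are the least certain.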

Other observations

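The 96 Zfp genes listed under 1 FPKM on average were read from a fit with no filter on level, over 14956 genes. In that limma fit 0 passed at an adjusted p under 0.05, 1 was higher at an unadjusted p under 0.05 (against 1.06% of all genes) and 0 were lower (against 3.55%). Every Het heart was above every WT heart in 3 of the 96 (against 2.37% of all genes in that fit) and below in 4 (against 13.9%). The higher gene was Zfp985, at 0.285, 0.443 and 0.390 FPKM in WT 1, 2 and 3 and 0.917, 0.579 and 0.931 FPKM in Het 1, 2 and 3, with a log2 difference of 0.39 (SE 0.13) and a limma adjusted p of 0.776. Zfp688 stood at 0.333, 0.566 and 0.497 FPKM in WT and 0.971, 0.621 and 0.680 FPKM in Het. Zfp619 stood at 0.524, 0.588 and 0.472 FPKM in WT and 0.0284, 0.359 and 0.369 FPKM in Het. All of these genes lie at levels where few fragments may stand behind a value, and the number of fragments is unknown.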
